A study of Rattus norvegicus with 6 samples.

Results

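The genes described here are 10 signals that call white blood cells into tissue: the CC chemokines Ccl2, Ccl7, Ccl5 and Ccl20, the CXC chemokines Cxcl1, Cxcl2, Cxcl3 and Cxcl12, the macrophage growth factor Csf1 and the adhesion molecule Vcam1. They were taken by symbol from a table of read counts for 18718 genes. All 10 were matched, and all 10 passed the filter on low counts that left 12268 genes for testing. The table comes from HEI-OC1 cells, an established line from the auditory organ, in 2 groups of 3 libraries. One group received an siRNA against Hnrnpd (labelled AUF1 knock down, called siHnrnpd 1 to 3 here) and the other a control siRNA (called control 1 to 3). Both groups were grown in the same serum-containing medium, and the labels name no other agent or time. Each group is 1 cell line, and no label ties a replicate number to a separate culture, so the spread between libraries may be technical. The labels give the organism as rat, although the HEI-OC1 line was derived from mouse as far as is generally known. Whether the reads are rat or mouse was not tested, and every level, order of levels and marker at or near 0 carries that limit.

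Chemokines are small secreted proteins that bind G protein-coupled receptors on leukocytes and set up a gradient along which the cells move. Their mRNAs are typically switched on by inflammatory signals through NF-kB and are short-lived, many of them carrying AU-rich elements that decay factors recognise. AUF1, the product of Hnrnpd, is an RNA-binding protein that attaches to such elements. In the cochlea, chemokines and CSF1 are known for their part in drawing in and keeping monocytes and macrophages after injury.

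The libraries held 28984535 to 35842904 counts and 15583 to 15926 genes with at least 1 count. The siRNA target, listed as Hnrpd on chromosome 14, stood at 62.8% of its control level, with 269 to 319 CPM (counts scaled to library size after TMM scaling) in control and 177 to 200.2 CPM in siHnrnpd. Of 9 hair cell markers, 6 were matched. Myo6 was above 1 FPKM (fragment counts scaled to transcript length and library size), while Gfi1, Myo7a, Otof, Slc26a5 and Espn had means under 0.1 FPKM. Fibroblast and mesenchymal markers summed to 651 to 743 FPKM in control and 728 to 863 FPKM in siHnrnpd, led by Col1a1, and Dcn alone among the 8 was under 0.1 FPKM. The list was uneven, with Col1a1 at 280 to 414 FPKM over all libraries but Col1a2 at 0.54 to 0.75 FPKM. Apart from Myo6, the matched hair cell markers gave no sign of the auditory hair cells of the series title. Values near 0 carry the species limit given above, so no cell identity is read from them. Atoh1, Pou4f3 and Tmc1 were not analysed here.

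Promoter sequence was not used to choose the genes, but their role was. Inflammatory signals of this kind are typically switched on through NF-kB, so its sites in their promoters are not an independent feature. RefSeq windows on the rat build GRCr8 were matched for Ccl7, Ccl20, Cxcl1, Cxcl2, Cxcl12 and Vcam1. For Ccl2, Ccl5, Cxcl3 and Csf1 no window was available. The windows are rat reference sequence and may differ from the promoters of these cells. Both strands of each 300-base window were searched for GGGNNTNNCC, a loose form of the NF-kB binding site, and overlapping matches were counted as one stretch. Below are bases 150 to 21 before the annotated start, written 5′ to 3′ on the gene's strand, with matches in capitals. They are shown because Cxcl1, Cxcl2, Ccl20 and Vcam1 hold such stretches close to the start, and Ccl7 and Cxcl12 do not.
Cxcl1, chr14:17479342-17479471, minus strand: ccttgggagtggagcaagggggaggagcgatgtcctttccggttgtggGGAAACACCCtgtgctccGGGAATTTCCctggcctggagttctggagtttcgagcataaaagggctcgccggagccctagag
Cxcl2, chr14:17467276-17467405, minus strand: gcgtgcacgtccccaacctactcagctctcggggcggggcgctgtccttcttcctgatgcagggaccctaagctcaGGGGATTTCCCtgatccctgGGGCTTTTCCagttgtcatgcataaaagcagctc
Ccl20, chr9:91837009-91837138, plus strand: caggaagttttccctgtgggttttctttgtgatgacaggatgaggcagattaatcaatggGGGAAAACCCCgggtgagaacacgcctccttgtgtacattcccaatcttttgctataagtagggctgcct
Vcam1, chr2:206742804-206742933, minus strand: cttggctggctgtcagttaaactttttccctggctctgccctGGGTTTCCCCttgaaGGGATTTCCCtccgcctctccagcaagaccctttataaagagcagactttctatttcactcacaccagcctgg
Ccl7, chr10:67513945-67514074, plus strand: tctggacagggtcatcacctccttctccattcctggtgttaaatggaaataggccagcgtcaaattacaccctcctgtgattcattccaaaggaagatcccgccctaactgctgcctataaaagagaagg
Cxcl12, chr4:152060631-152060760, plus strand: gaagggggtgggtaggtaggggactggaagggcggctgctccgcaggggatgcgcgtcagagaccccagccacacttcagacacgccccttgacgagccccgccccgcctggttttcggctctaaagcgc

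The NF-kB motif was in 4 of the 6 windows, and in 17.3% of 33469 promoter windows of the same length. Because the genes were chosen by role, nothing is read from these shares. An interferon response form, GAAANNGAAA, was matched in Vcam1 only, against 3.9% of all windows, and the AP-1 form TGANTCA in Ccl7 only, against 7.3%. A match of letters is a description and was not tested as a binding site.

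Among the 10 genes, the monocyte chemokine Ccl2 had the highest level per unit of transcript length in control. By the authors' FPKM its level was 363 ± 29.2 (SD, n = 3), followed by the neutrophil chemokine Cxcl1 at 113 ± 1.93, Csf1 at 98.4 ± 9.29 and Ccl7 at 71.8 ± 5.51. Ccl5 at 30.9 ± 5.31 and Cxcl12 at 29.2 ± 1.17 FPKM came next, and their libraries overlapped. Vcam1 at 11.6 ± 1.23 and Ccl20 at 9.89 ± 1.09 FPKM also overlapped, while Cxcl3 at 8.07 ± 0.27 lay below both. Cxcl2 was last at 0.977 ± 0.20 FPKM. In the siHnrnpd libraries the order was the same except that Vcam1 and Ccl20 changed places, again overlapping, and Ccl7 and Ccl5 also came to overlap.

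**Figure D1:**
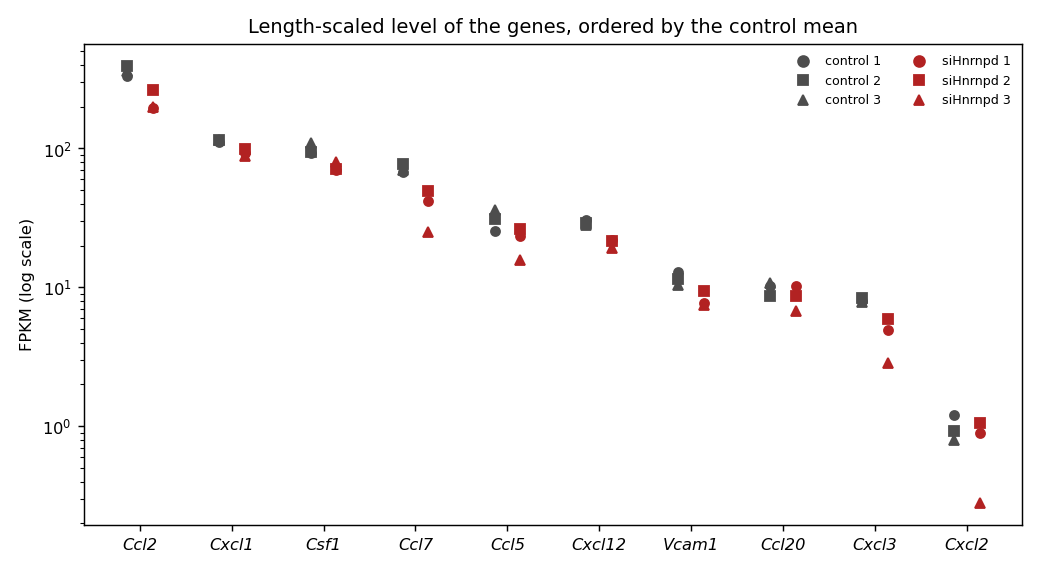
Length-scaled level of the 10 genes by the authors' FPKM on a log axis, ordered by the control mean, with 1 point per library (grey control, red siHnrnpd, shape by replicate number). Ccl2 is highest at 335 to 393 FPKM in control and Cxcl2 lowest at 0.8 to 1.2 FPKM.

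Genes next to each other in the genome differed widely in level. In the GRCr8 annotation, Ccl2 and Ccl7 are consecutive protein-coding genes, and Ccl11, which encodes the eosinophil chemokine eotaxin, follows them. Ccl11 averaged 2 counts per library over the 6 libraries, whereas Ccl2 had 6170 to 12579 counts. Cxcl2, Cxcl1 and Cxcl3 lie in another cluster, which also holds Cxcl6 with an average of 2 counts and the platelet chemokine Ppbp with 0.167 counts. Cxcl1, Cxcl2 and Cxcl3 are similar in sequence, as are Ccl2 and Ccl7, so a read may have been counted for the wrong copy and their separate levels are uncertain.

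Setting the groups side by side asks what happens to these signals when Hnrnpd is reduced. All 10 genes had a lower mean in the siHnrnpd libraries, from 53.5% of control for Ccl7 to 85.4% for Ccl20, and in 7 of them the groups did not overlap. The genes were chosen by role and selected on their log2 differences between these same groups, so the values are a description and carry no test of their own. For each gene the CPM of every library is given, then the log2 difference of siHnrnpd minus control from edgeR with its SE.

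Ccl2 encodes MCP-1, which draws CCR2-bearing monocytes out of the blood. It had 329, 392 and 348 CPM in controls 1 to 3 and 192, 259.7 and 189 CPM in siHnrnpd 1 to 3. The groups lay apart, with siHnrnpd 2 the nearest to control. The means were 356 ± 32.0 and 214 ± 40.04 CPM (SD, n = 3 each), or 59.9% of control, and the log2 difference was -0.74 (SE 0.12).

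Ccl7, or MCP-3, is a related monocyte chemokine. Its CPM was 67.1, 78.9 and 69.1 in control and 41.3, 49.3 and 24.5 in siHnrnpd. Every siHnrnpd library lay below every control, and siHnrnpd 3 was the lowest of all. The means were 71.7 ± 6.30 and 38.4 ± 12.7 CPM (SD, n = 3 each), with a log2 difference of -0.90 (SE 0.20).

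Ccl5, or RANTES, attracts T cells and monocytes. Its libraries had 16.4, 20.1 and 22.8 CPM in control and 14.8, 16.8 and 9.71 CPM in siHnrnpd. The groups overlapped, because siHnrnpd 2 was above control 1. Its mean in siHnrnpd was 69.7% of control, with a log2 difference of -0.52 (SE 0.19).

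Ccl20, the ligand of CCR6 on Th17 cells and dendritic cells, differed least in mean. It had 9.44, 8.14 and 9.83 CPM in control and 9.34, 8.0 and 6.06 CPM in siHnrnpd. Only siHnrnpd 2 and siHnrnpd 3 lay below the lowest control, and the log2 difference was -0.23 (SE 0.16).

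Cxcl1, Cxcl2 and Cxcl3 act on CXCR2, the main chemokine receptor of neutrophils. Cxcl1, the most abundant of them, had 121, 126 and 122 CPM in control and 100.4, 108 and 93.3 CPM in siHnrnpd. The control libraries differed little, with a coefficient of variation of 2.18%, and all siHnrnpd libraries lay below them. Its mean in siHnrnpd was 81.5% of control and its log2 difference -0.29 (SE 0.071).

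Cxcl3 had 13.8, 14.6 and 13.3 CPM in control and 8.43, 10.2 and 4.78 CPM in siHnrnpd. The groups lay apart, at 56.2% of control on average, with a log2 difference of -0.83 (SE 0.22). Cxcl2 was counted too seldom for a firm value, with 44, 37 and 36 counts in control and 39, 44 and 11 counts in siHnrnpd. On the CPM scale siHnrnpd 1 and 2 lay within the controls' range of 0.996 to 1.52, and siHnrnpd 3 was at 0.337. The log2 difference of Cxcl2 was -0.40 (SE 0.40), and -0.02 without siHnrnpd 3.

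Cxcl12, or SDF-1, is a homeostatic chemokine that holds CXCR4-bearing progenitors and lymphocytes in their niches. Its CPM was 194, 187 and 176 in control and 139, 138 and 119 in siHnrnpd. The groups were well separated, and siHnrnpd 1 and 2 were nearly equal. The means were 186 ± 9.04 and 132 ± 11.1 CPM (SD, n = 3 each), or 71.1% of control, with a log2 difference of -0.49 (SE 0.079).

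Csf1, the growth factor that macrophages need to survive, had 439.7, 453 and 510.4 CPM in control and 333, 339 and 366 CPM in siHnrnpd. The siHnrnpd libraries were close to each other, and siHnrnpd 3 was the highest of them. The mean was 73.9% of control, and the log2 difference -0.44 (SE 0.077).

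Vcam1 is the cell surface protein that leukocytes grip through the integrin VLA-4. It had 60.5, 54.7 and 48.0 CPM in control and 36.3, 44.2 and 34.0 CPM in siHnrnpd. The groups lay apart, although siHnrnpd 2 came close to control 3. The mean was 70.1% of control, and the log2 difference -0.51 (SE 0.11).

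**Figure D2:**
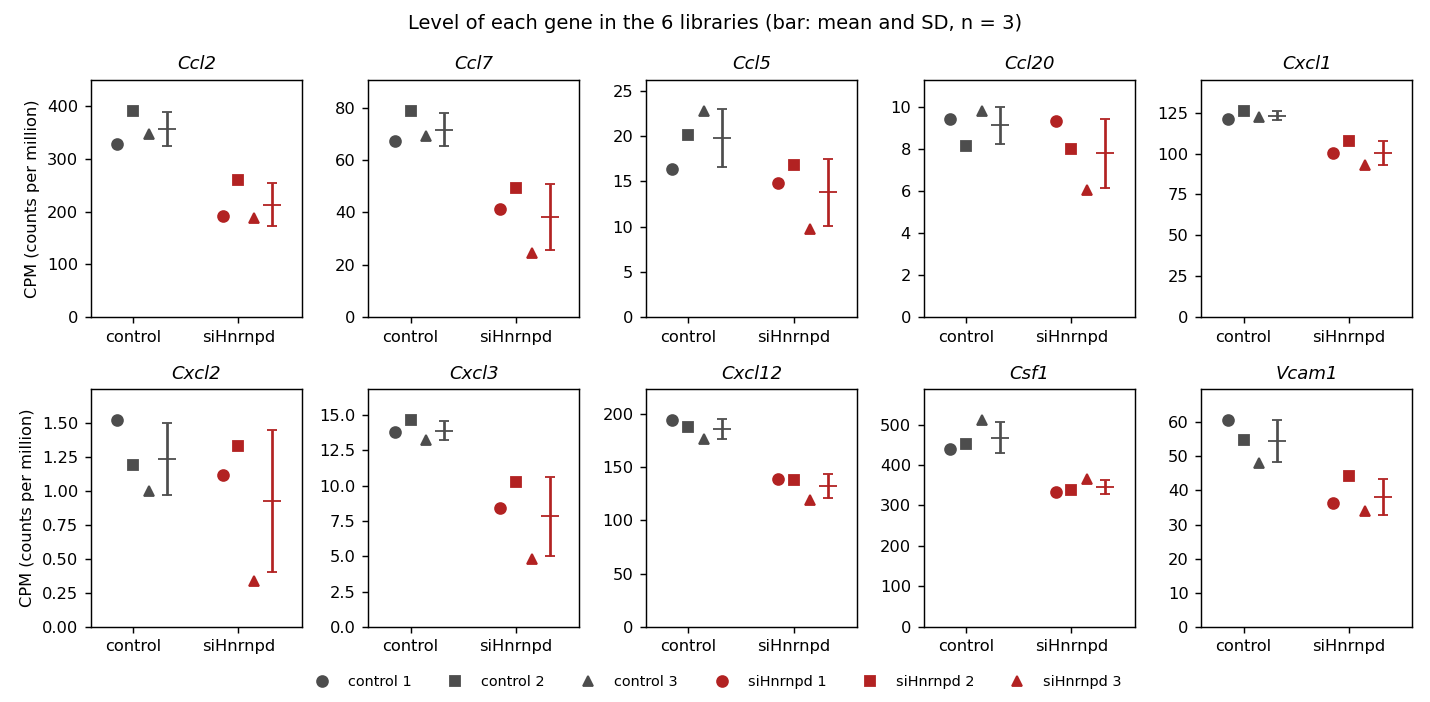
CPM of each gene in the 6 libraries, with axes from 0, points shaped by replicate number and a bar for the mean and SD (n = 3) of each group. The groups overlap in Ccl5, Ccl20 and Cxcl2 and are apart in the other 7 genes.

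The log2 difference was below 0 in all 10 genes, against 48.3% of all genes tested, and the median was -0.50 against 0.0054 over all genes. Of the 10, 7 had siHnrnpd libraries all below the controls, as did 8.57% of all genes. By edgeR's quasi-likelihood test 0 of the 10 passed a Benjamini-Hochberg adjusted p under 0.05, which 0.0815% of all genes passed (0.0571% lower and 0.0245% higher). At an unadjusted p under 0.05, 8 of the 10 were lower and 0 higher, against 5.20% and 5.84% of all genes. DESeq2 called 6 of the 10 lower and 0 higher, against 0.934% and 0.480% of all genes. EdgeR called 1 of the 10, Ccl2, lower without siHnrnpd 2, against 0.0485% of all genes, and 6 lower with no filter on low counts, against 0.540%. Because the same contrast led to the choice of genes, nothing is read from these shares.

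The siHnrnpd libraries were not alike. In siHnrnpd 3, 9 of the 10 genes had their lowest value of all 6 libraries, the exception being Csf1. The share of all genes that were lowest in siHnrnpd 3 was not computed. The 10 genes were also selected on differences between these groups, so nothing is read from this count. The median of the 10 genes relative to the control mean was -0.45 and -0.36 on the log2 scale in siHnrnpd 1 and 2 and -0.79 in siHnrnpd 3, and -0.040 to 0.024 in the controls. For Ccl7, siHnrnpd 3 was at 54.0% of the mean of siHnrnpd 1 and 2. Cxcl3 in siHnrnpd 3 was at 51.2% of that mean, Ccl5 at 61.3%, Ccl20 at 69.9% and Cxcl2 at 27.6%. Ccl2, Cxcl1, Cxcl12 and Vcam1 were at 83.6% to 89.6% of it, and Csf1 was at 109%.

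Interferon-stimulated genes were also lowest in this library. For 14 of them, the median relative to the control mean was -0.62 and -0.49 in siHnrnpd 1 and 2 and -2.02 in siHnrnpd 3, and -0.17 to 0.21 in the controls. Their summed level was 931 to 1242 FPKM in control and 334 to 839 FPKM in siHnrnpd. The part of this in the values of the 10 genes was not tested. Without siHnrnpd 3 the means of Ccl2 and Ccl7 stood at 63.4% and 63.2% of control, Cxcl3 at 67.1%, Cxcl12 at 74.5%, Csf1 at 71.8% and Vcam1 at 73.9%. Ccl5 then stood at 80.02%, Ccl20 at 94.9% and Cxcl2 at 99.04%, so Ccl20 and Cxcl2 were then close to control. The log2 differences without it were -0.33 for Ccl5 and -0.09 for Ccl20.

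**Figure D3:**
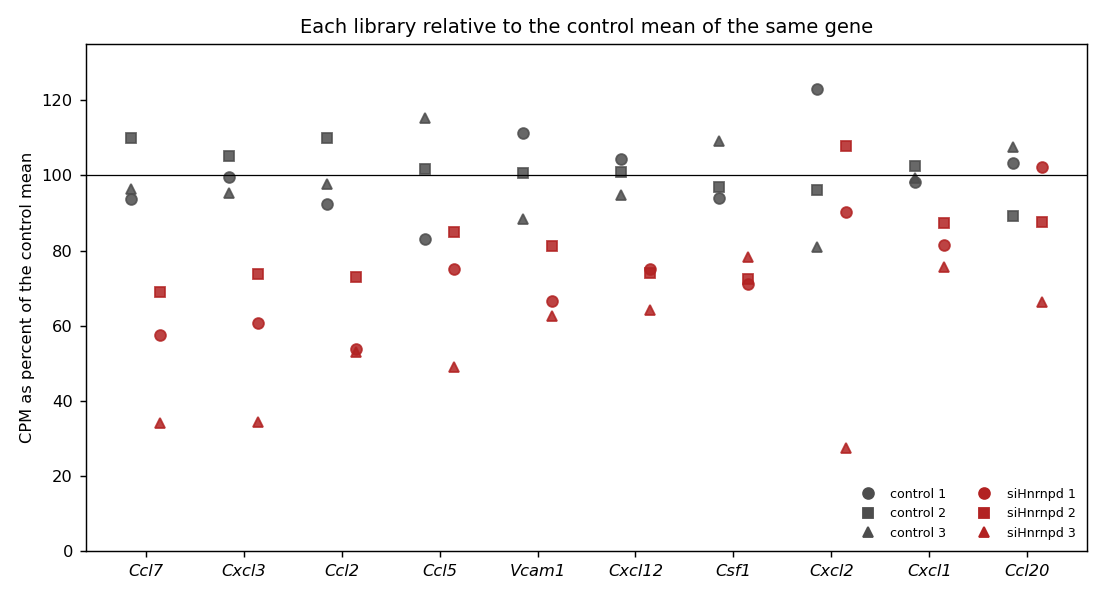
CPM of each library as a percent of the gene's control mean, with the genes in order of the siHnrnpd mean (grey control, red siHnrnpd, shape by replicate number, line at 100). The triangle of siHnrnpd 3 is lowest in every gene except Csf1, at 34.1% in Ccl7 and 78.2% in Csf1.

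Leaving out any 1 library kept all 10 differences below 0. In the 7 genes whose groups did not overlap, this sign followed from the lack of overlap. The genes were also selected on these same libraries, so nothing is read from the shared sign. The range over these 6 fits was -0.90 to -0.67 for Ccl2, -1.12 to -0.67 for Ccl7 and -1.07 to -0.59 for Cxcl3. It was narrower for Cxcl12, at -0.53 to -0.43, and for Csf1, at -0.49 to -0.37. Cxcl1 ranged from -0.35 to -0.25 and Vcam1 from -0.63 to -0.44.

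**Figure D4:**
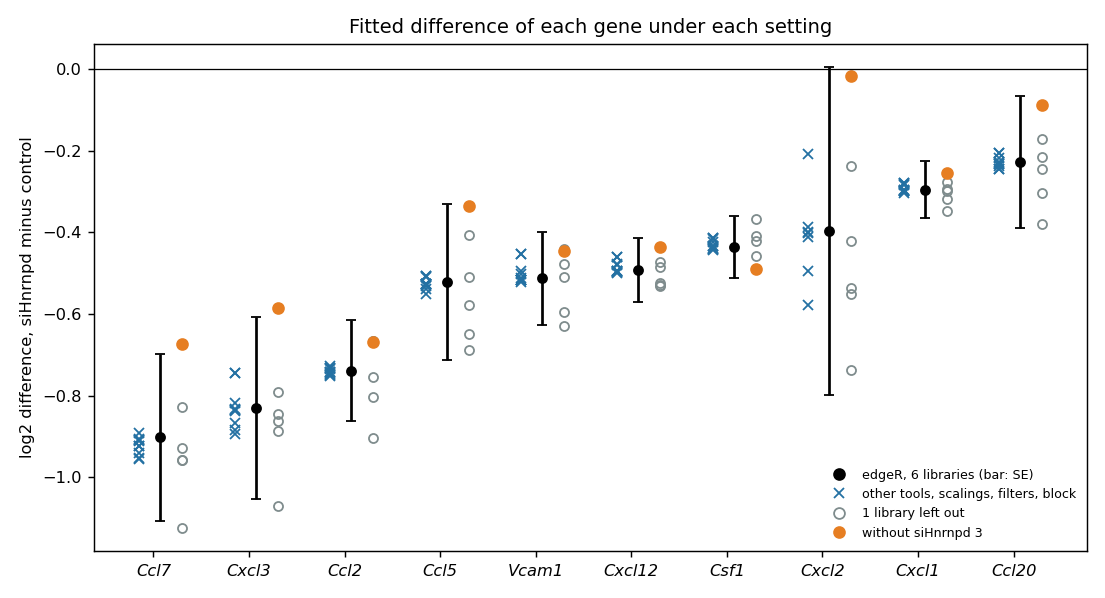
Log2 difference of each gene from edgeR with its SE (black), under other tools, scalings, filters and the replicate block (blue crosses) and with 1 library left out (open circles, orange for siHnrnpd 3). All points lie below 0, and Cxcl2 has the widest spread, reaching -0.02 without siHnrnpd 3. Every point refits the libraries on which the genes were selected, so the shared sign is no support.

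Several defining markers of the leukocytes that these signals attract were near 0 in the rat-aligned tables, but not all markers were. Of 10 monocyte and macrophage markers, 8 were matched, and Ptprc, Csf1r, Adgre1 and Itgam had means under 0.1 FPKM. The summed level was 31.0 to 34.0 FPKM in control and 35.0 to 38.3 FPKM in siHnrnpd, nearly all of it Cd14 at 28.97 to 35.84 FPKM, with Cd68 at 1.46 to 1.79 FPKM. Neutrophil markers summed to 1.57 to 1.72 FPKM in control and 1.20 to 1.66 FPKM in siHnrnpd, with Csf3r and Cxcr2 under 0.1 FPKM and S100a8 at 0.84 to 1.48 FPKM. Of 7 endothelial markers 5 were matched, 4 of them with FPKM values, which summed to 0.39 to 0.45 and 0.39 to 0.53 FPKM, with Cdh5 and Sele under 0.1 FPKM. In such bulk RNA, fewer cells making a transcript and less transcript per cell cannot be told apart.

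Several receptors for these signals were scarcely counted in these cells. Over the 6 libraries Cxcr2 averaged 0.167 counts, Ccr6 0.667, Csf1r 1.17 and the CXCL12 receptor Cxcr4 22.0. The scavenging receptor Ackr4, which removes some CC chemokines, was abundant at 67.3 FPKM in control. Of 23 listed chemokine receptors 7 were tested, and edgeR and DESeq2 called 0, and at an unadjusted p under 0.05 there were 1 higher and 0 lower. Their median log2 difference was 0.09, and 0.041 (without control 2) to 0.32 (without control 3) with 1 library left out. Ackr3, which takes up CXCL12, averaged 0.695 ± 0.094 CPM in the controls against 1.20 ± 0.085 CPM with the siRNA (SD, n = 3 each), without overlap, as in 8.42% of all genes in that direction. The log2 difference of Ackr3 was 0.78 and missed the threshold (edgeR adjusted p = 0.280). Ccrl2, Cxcr4 and Cxcr3 had log2 values of -0.36, 0.51 and 0.31, with edgeR adjusted p of 0.531 to 0.673. With 1 library left out these ran over -0.51 to -0.22, 0.085 to 0.75 and 0.17 to 0.45, and the lowest value of Cxcr4 was without siHnrnpd 3.

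Of 30 other chemokines listed, 8 were tested. Cxcl10, at 2153 FPKM in control, lay above each of the 10 genes, and Cxcl16 was at 29.3 FPKM. By edgeR 0 were called, with 4 lower and 0 higher at an unadjusted p under 0.05, and DESeq2 called 2 lower. The median was -0.49, with 7 of the 8 negative. The CXCR3 ligands Cxcl11, Cxcl10 and Cxcl9, which interferon induces, had log2 values of -1.69, -1.04 and -1.31, and without siHnrnpd 3 they had -1.42, -0.89 and -0.94. With all libraries their edgeR adjusted p was 0.0615, 0.0615 and 0.295. Ccl22, a T cell chemokine with few counts, had -0.84 (edgeR adjusted p = 0.368). Cxcl16 and Ccl24, each well counted, had -0.14 and -0.03 (edgeR adjusted p = 0.646 and 0.963). Cx3cl1 and Ccl27 had -0.10 and 0.32 (edgeR adjusted p = 0.873 and 0.656). The list was thus split, and none of the 8 lay near their median of -0.49.

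Among colony-stimulating factors and their receptors, 4 of 12 listed genes were tested and edgeR and DESeq2 called 0, with 0 at an unadjusted p under 0.05. Csf2ra, Kit, Csf3 and Kitlg had log2 values of 0.31, 0.31, 0.28 and 0.02, with a median of 0.29. With 1 library left out they ran over 0.13 to 0.47, 0.038 to 0.49, -0.14 to 0.67 and -0.12 to 0.21, and Csf3 (without siHnrnpd 1) and Kitlg (without control 2, control 3, siHnrnpd 2 or siHnrnpd 3) changed sign. The median was then 0.15 to 0.31, lowest without siHnrnpd 3. With all libraries the edgeR adjusted p of these 4 ran from 0.640 to 0.976. The macrophage factor Il34, which shares its receptor with CSF1, averaged 1.33 counts.

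Of 24 adhesion molecules and integrins, 12 were tested, with a median of 0.0093 (-0.052 to 0.066 with 1 library left out) and 6 positive. EdgeR called 0, with 1 lower and 0 higher at an unadjusted p under 0.05, and DESeq2 called 1 lower, Itgb7. Itgb7, an integrin beta chain that pairs with alpha 4, averaged 3.39 ± 0.067 CPM in the controls against 1.77 ± 0.35 CPM with the siRNA (SD, n = 3 each), and its log2 difference was -0.93 (edgeR adjusted p = 0.122). Icam1, which like Vcam1 is an NF-kB-driven adhesion molecule, was at -0.19 on the log2 scale (edgeR adjusted p = 0.526), and -0.10 without siHnrnpd 3. Cd44 and Icam5 had 0.15 and -0.31 (edgeR adjusted p = 0.471 and 0.572), and Icam5 had -0.079 without control 3.

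Genes of cytokine and NF-kB signalling, some of them NF-kB targets themselves, showed no shared direction at the mRNA level. These mRNA levels do not measure NF-kB activity, which was not tested. Of 43 listed cytokine and NF-kB genes, 38 were tested, 19 positive and 19 negative, with a median of -0.0074 (-0.023 to 0.029 with 1 library left out). EdgeR called 0 and DESeq2 called 0, with 2 lower and 0 higher at an unadjusted p under 0.05. The inhibitor Nfkbia, itself an NF-kB target, averaged 173 ± 9.49 CPM in the controls against 148 ± 6.37 CPM with the siRNA (SD, n = 3 each), and its log2 difference was -0.22 (edgeR adjusted p = 0.323). The TNF receptor Tnfrsf1b had -0.22 and the interleukin-1 antagonist Il1rn -0.21 (edgeR adjusted p = 0.305 and 0.452). Il1rap, a subunit of the interleukin-1 receptor, had 0.35 (edgeR adjusted p = 0.461). The NF-kB subunits Rela and Nfkb1 had -0.02 and 0.02 (edgeR adjusted p = 0.965 and 0.916).

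Regulators of mRNA decay also gave 0 calls by edgeR and DESeq2, and 0 at an unadjusted p under 0.05, among 22 tested rows. Their median was -0.03 (-0.050 to -0.0022 with 1 library left out). Not all of them, Elavl1 among them, act to destabilise mRNAs, so the median mixes different roles. Zfp36 (tristetraprolin) and Zc3h12a (Regnase-1), which destabilise inflammatory mRNAs, had log2 values of 0.03 and 0.08 (edgeR adjusted p = 0.911 and 0.753). The deadenylase genes Cnot6 and Parn had -0.24 and -0.14, Tia1 had 0.20 and Zfp36l1 -0.16, with edgeR adjusted p of 0.469 to 0.685. Zfp36l1 ran over -0.28 to -0.045 with 1 library left out. Of 14 proteases that trim or shed chemokines and receptors, 6 were tested with a median of -0.03 (-0.028 to 0.0002 with 1 library left out), and edgeR and DESeq2 called 0, with 0 at an unadjusted p under 0.05. Mmp14, Adam10, Anpep and Mmp3 had log2 values of 0.11, -0.15, -0.08 and -0.38 (edgeR adjusted p = 0.567 to 0.841). With 1 library left out they ran over 0.071 to 0.13, -0.29 to 0.042, -0.21 to -0.0064 and -1.02 to 0.071, and Adam10 (without control 1 or siHnrnpd 1) and Mmp3 (without siHnrnpd 3) changed sign. Dpp4, the peptidase that inactivates CXCL12, averaged 0.667 counts.

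**Figure D5:**
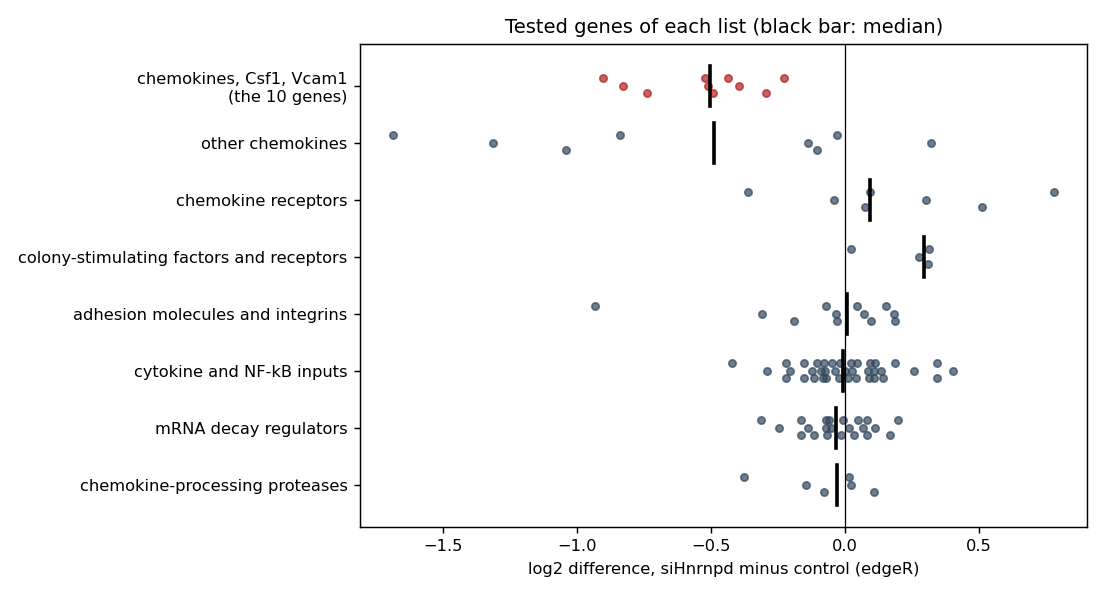
Log2 difference (siHnrnpd minus control, edgeR) of every tested gene in the 10-gene set (red) and in 7 related lists (blue), with a black bar at each median. The 10 genes and the remaining chemokines have medians of -0.50 and -0.49, and the adhesion, NF-kB, decay and protease lists have medians from -0.03 to 0.0093. The remaining chemokines are split, and none lies near their median. Cxcl11, Cxcl9, Cxcl10 and Ccl22 lie from -1.69 to -0.84, and Cxcl16, Cx3cl1, Ccl24 and Ccl27 from -0.14 to 0.32.

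Genes with the most similar pattern were sought among 8683 others with a mean of at least 5 CPM, by the root mean square difference of log2 CPM relative to the control mean over the 6 libraries. Nearest to Ccl2 were Il36b, an interleukin-1 family cytokine (0.12), Figf, which encodes the lymphatic growth factor VEGF-D (0.13), and Rhpn2 (0.16). Il36b stood at 55.8%, 75.5% and 47.8% of its control mean in siHnrnpd 1 to 3, and Ccl2 at 53.9%, 72.9% and 53.0%. Nearest to Cxcl1 were Rdh11, Bzw2 and Ier5, each at 0.040 to 0.045.

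Nearest to Cxcl12 were Rbm43 (0.063), the matrix protein gene Tnn (0.073) and Rsph3 (0.097). Csf1 was most like Enoph1 (0.041), Glb1, which encodes lysosomal beta-galactosidase (0.053), and the row listed as Tas1r2 (0.077). Glb1 stood at 75.1%, 72.4% and 75.8% of control in siHnrnpd 1 to 3, and Csf1 at 71.2%, 72.4% and 78.2%, so neither had its lowest value in siHnrnpd 3. Vcam1 was most like Ubxn2b (0.056), Ermp1 (0.059) and Herc6 (0.078). These likenesses describe 6 libraries and carry no test.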

How the data were processed

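Total RNA of HEI-OC1 cells was sequenced in 6 libraries. Per the submitters' processing notes the authors aligned reads with TopHat2 and named the build mRatBN7.2. The counter and its strand setting: not given in the sources used here, so reads of overlapping or antisense genes may be mixed. The first deposited table holds raw counts per gene and the second holds FPKM values computed by the authors. Columns were matched to samples by siRNA name and replicate number, and 0 were left without a sample.

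The quasi-likelihood test of edgeR 4.0.16 (R 4.3.3) was run on the counts with TMM scaling, the filterByExpr filter and group as the term, adjusted by Benjamini-Hochberg over 12268 genes. The SE is the log2 difference divided by the root of its F value. Alternatives used DESeq2 1.42.0, limma 3.58.1 (voom, or log2 FPKM plus 1 or 0.1), other scalings and filters, a replicate block, and each library left out. Libraries of all pairs differed by more than sampling noise.

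Of 180 genes in the 10-gene set and its 7 related lists, 152 matched by symbol, 3 by RefSeq synonym (GRCr8) and 25 were not analysed here. Members and lists were chosen with earlier results of these data known. Named list genes are the 4 with the smallest p in each list. Several receptors of the 10 signals, genomic neighbours, NF-kB subunits, Zfp36, Zc3h12a, Il34, Dpp4, Ackr4, Cxcl16 and Ccl24 were named after their values were seen. The same holds for Cx3cl1, Ccl27 and Itgb1. Some results are not reported here.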

Additional observations from a re-analysis of the deposited data

How the results depend on the processing

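From 10 genes called over the whole table, the count moved to 162 with DESeq2, 147 with no filter on low counts, 6 with upper-quartile scaling, 0 by limma on log2(FPKM + 1) and on log2(FPKM + 0.1), and 1 on log2(FPKM + 1) with no minimum FPKM. Leaving out 1 library gave 0 to 14. Related-list genes called went from 0 to 3 with DESeq2 and with no filter (Cxcl10, Cxcl11 and Itgb7), to 1 with limma-voom (Cxcl11), and to 0 to 1 with 1 library left out (Cxcl11 without siHnrnpd 2 and without siHnrnpd 3). The causes were not tested. The median of the 10 genes stayed between -0.66 and -0.44 over all 16 alternatives, although the filter of at least 50 counts and the FPKM minimum left 9 genes, without Cxcl2. Of 157 values of single genes under the alternatives, 155 moved by less than the replicate SD. The other 2 were Cxcl2 without siHnrnpd 2 (-0.74) and without siHnrnpd 3 (-0.02). This SD was of log2(CPM + 1), a scale that is compressed at the low level of Cxcl2. The alternatives refit the same counts, and leaving out 1 library of 3 shifts a group mean by less than that SD. The count of 155 was therefore nearly bound to be high, and nothing is read from it. With the replicate number as a block 0 genes were called, and the median was -0.51. Same-numbered libraries deviated together with correlations of -0.41, 0.18 and 0.10, and not every library correlated best with its own number, so the numbers were not taken as pairs. With 11 to 44 counts per library, depth limits Cxcl2.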
